A study of Mus musculus with 6 samples.

Results

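The sirtuins are a family of 7 enzymes, SIRT1 to SIRT7, encoded in the mouse by Sirt1 to Sirt7. Their transcripts were read from every non-control array probe whose accession belongs to a member in RefSeq. This gave 10 probes, 2 each for Sirt4, Sirt6 and Sirt7 and 1 each for the other 4 genes, out of 55681 probes on the array. All 10 were well above background on all 6 arrays, so that no member was lost to the filter on dim probes, and the 7 genes are counted among 15309 tested. Whole kidneys came from male C57BL/6J mice, 3 labelled Control and 3 labelled iNampt-conditional knockout, with total RNA of each animal on its own single-colour Agilent array. The series title places the deletion in the renal proximal tubules and names a Nampt-Sirt6 axis. The labels give no treatment, no age, no Cre driver and no deleted exons, and do not say whether the controls carried a floxed allele or a Cre. The comparison asks whether the transcripts of the NAD-dependent deacylases differ when the enzyme that replenishes their cosubstrate is deleted. In whole-kidney RNA, fewer cells of a type and less RNA per cell cannot be told apart.

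Sirtuins remove acetyl and other acyl groups from lysine side chains. Each turn of the reaction consumes an NAD molecule and releases nicotinamide, which NAMPT, the rate-limiting enzyme of NAD salvage, returns towards NAD. SIRT1, SIRT6 and SIRT7 are mainly nuclear, SIRT2 is mainly cytosolic, and SIRT3, SIRT4 and SIRT5 lie in mitochondria. In the kidney, sirtuins are known for effects on tubular mitochondria, fatty acid use and resistance to injury. Their activity depends on NAD and not only on how much transcript is made, and arrays measure the transcript alone.

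The array values are log2 of the signal after background subtraction, with each array's 75th percentile set to 0. Signals of the sirtuin probes lay between 75.6 and 29738 units, and the dimmest detected spot of an array at 18.5 to 32.2 units. The share of spots well above background ranged from 57.3% to 63.3%, no spot was saturated, and arrays correlated pairwise with Pearson r of at least 0.994 over 30025 probes, which are not independent replicates. By the position suffix of the array files, row 1 of the slide held all 3 controls with knockout 1, and row 2 held knockouts 2 and 3. Knockouts 2 and 3 had the lowest shares of spots well above background, 58.1% and 57.3%. Their dimmest detected spots, at 29.6 and 32.2 units, were brighter than those of the row 1 arrays. The labels number the mice within a group. Limma's p-values and intervals rest on the spread between these animals, moderated towards a spread pooled over all genes or probes tested.

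Nampt, the targeted gene, lay at 2.78, 2.59 and 2.65 in controls 1, 2 and 3 and at 1.80, 1.502 and 1.53 in knockouts 1, 2 and 3. Every knockout was below every control. Nampt fell by 1.06 ± 0.10 (log2, SE; adjusted p = 0.0431 by limma), a level 52.0% lower, in RNA from all cells of the kidney. The labels do not say where its probe lies relative to the deletion. The call was lost without control 1, 2 or 3 or knockout 2 or 3 (differences from -1.10 to -1.003, limma adjusted p from 0.0731 to 0.181), and blocking on slide row gave -0.87 (limma adjusted p = 0.0733).

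Against that fall, the sirtuin transcripts differed little between the groups. By limma, 0 of the 7 genes reached an adjusted p (Benjamini-Hochberg) under 0.05, beside 0.170% of all genes tested (0.105% higher and 0.0653% lower), and their adjusted p lay between 0.352 and 0.878. At an unadjusted p under 0.05 there was 1 gene, Sirt2, which is 14.3% of the family beside 12.8% of all genes tested (6.69% higher and 6.13% lower). The groups did not overlap for 2 of the 7, Sirt2 and Sirt6, both lower in the knockouts. That is 28.6% of the family, beside 19.5% of all genes in either direction, 10.5% lower and 9.04% higher. In the fit over probes, 0 of the 10 passed (0.0789% of all probes), 0 had an unadjusted p under 0.05 (11.0%) and 2 had groups that did not overlap (17.3%). Of the 7 differences 3 were negative and 4 positive, with a median of 0.03 beside -0.01 over all genes. In linear terms the 7 differences ran in size from 1.92% to 8.48%. By the brightest probe of each gene, none of the 7 95% intervals reached beyond 16.0% lower or 15.7% higher. Blocking on slide row widened these limits to 25.1% lower, for Sirt3, and 26.5% higher, for Sirt5. Intervals of the dimmer probes, in the fit over probes, reached 30.1% lower for Sirt6 and 24.0% higher for Sirt7.

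**Figure D1:**
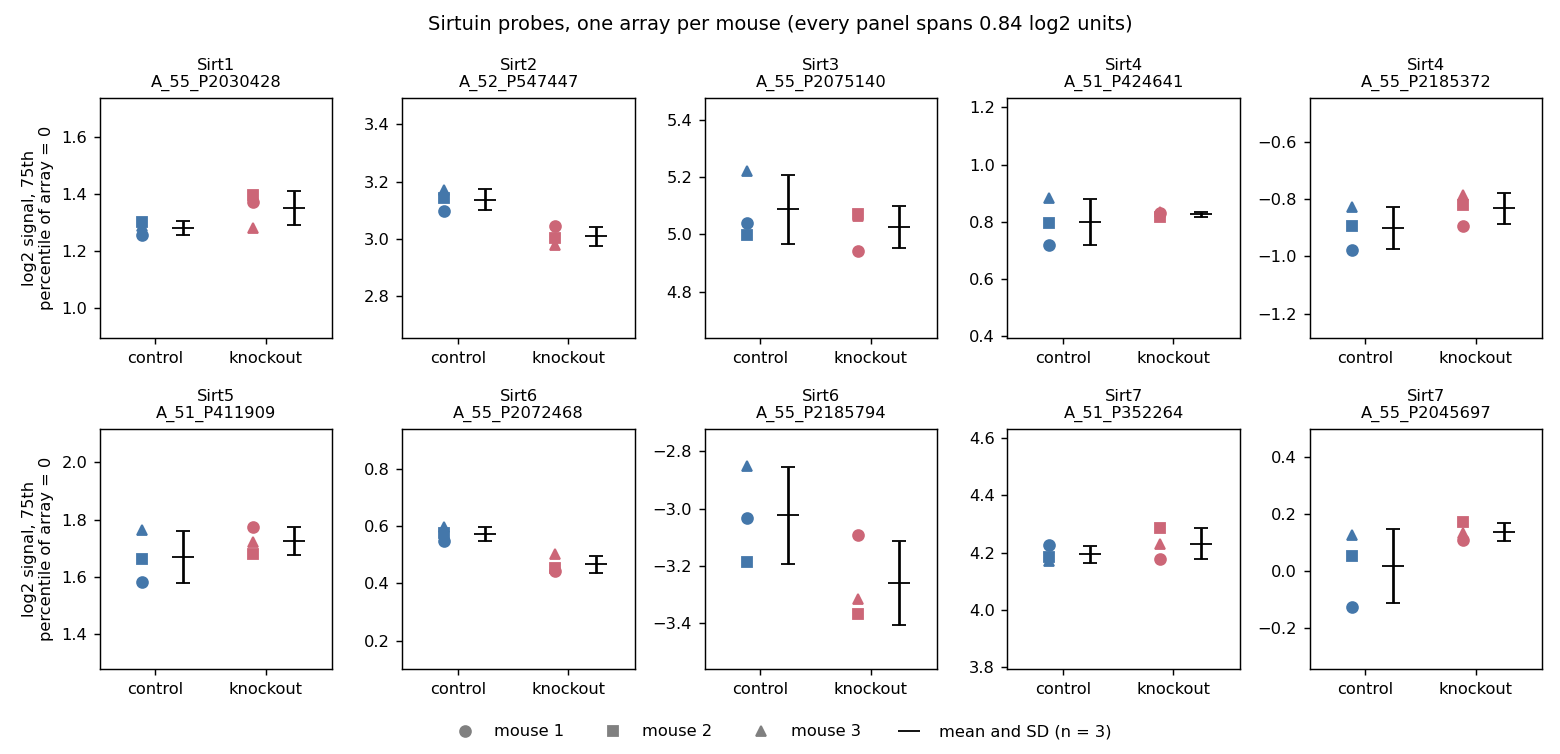
Normalised log2 signal of the 10 sirtuin probes on the y axis, with controls in blue and knockouts in red; each symbol shape is 1 mouse of a group, and bars give the mean and SD (n = 3). The groups separate for Sirt2 (A_52_P547447) and the brighter Sirt6 probe (A_55_P2072468), and overlap in the other 8 panels.

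Sirt6, the nuclear deacylase that the series title names, restrains glycolytic and inflammatory genes at chromatin and takes part in DNA repair. Its brighter probe, A_55_P2072468, lay at 0.55, 0.58 and 0.60 in controls 1, 2 and 3. The knockouts lay at 0.44, 0.46 and 0.50. All 3 knockouts were below all 3 controls. The difference was -0.11 ± 0.04 (log2, SE), or 7.11% lower with a 95% interval from 13.9% lower to 0.17% higher (limma adjusted p = 0.401). This probe varied little between mice of a group, with SDs of 0.025 in the controls and 0.030 in the knockouts (n = 3 each). Its residual SD was lower than that of all but 2.85% of the genes tested, so that the separation of the groups rests on a narrow spread.

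The dimmer Sirt6 probe, A_55_P2185794, read the same accession at 75.6 to 110 units. It lay at -3.03, -3.19 and -2.85 in controls 1, 2 and 3 and at -3.09, -3.37 and -3.32 in knockouts 1, 2 and 3. Knockout 1 fell among the controls, while knockouts 2 and 3, the arrays of the second slide row, were lowest. This probe varied more between mice, with SDs of 0.17 in the controls and 0.15 in the knockouts. Its difference was -0.24 ± 0.12 (limma over probes, adjusted p = 0.532), so both probes pointed lower and neither passed. Averaging them gave -0.17 (limma adjusted p = 0.385), the largest size for Sirt6 among the fits by gene. With slide row as a block, which compares knockout 1 with the controls beside it, the brighter probe was at -0.13 ± 0.07 (limma adjusted p = 0.615).

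The stretch before the outer RefSeq start of Sirt6 is shown because it is the member that the series title names. The stretches shown and the motifs searched were chosen after the values and the sirtuin promoter sequences had been seen, so the matches support nothing. It covers chr10:81627567-81627816 (GRCm38.p6, minus strand), and capitals mark letters of a searched motif.
Sirt6: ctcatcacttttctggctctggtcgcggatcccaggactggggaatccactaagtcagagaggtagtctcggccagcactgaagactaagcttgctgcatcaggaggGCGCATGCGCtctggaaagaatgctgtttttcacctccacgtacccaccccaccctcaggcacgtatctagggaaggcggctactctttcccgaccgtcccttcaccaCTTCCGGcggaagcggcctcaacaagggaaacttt

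The first capitals in this stretch are GCATGCGC read on both strands, the core recognised by nuclear respiratory factor 1 (NRF1), an activator of nuclear genes for mitochondria. The second are CCGGAAG on the opposite strand, a core of ETS family factors. Among 300-base windows from RefSeq, 250 bases before a start and 50 after, the NRF1 letters occur in 2.71% of 32851, and in those of Sirt6 and Sirt7 among the 9 sirtuin windows. The ETS letters occur in 8.86% of all windows and in 3 of the 9, those of Sirt3, Sirt6 and Sirt7. The E-box CACGTG, bound by MYC and by clock factors, occurs in 7.15% of all windows and only at Sirt1 among these 9, where it stands at 2 places. The GC box GGGCGG occurs in 35.7% of all windows and in 6 of the 9, and CCAAT in 37.4% of all and 3 of the 9. The letters GTAAACA of FOXO factors, TATAAA and the cAMP response element TGACGTCA were searched as well and stood in none of the 9 (3.65%, 13.6% and 1.79% of all windows). Both strands were searched and no 2 different motifs overlapped. Such matches describe the sequence and were not tied to the array values.

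Sirt1, the best studied member, deacetylates p53, FOXO factors and PGC-1 alpha in the nucleus. Its probe lay at 1.26, 1.30 and 1.29 in controls 1, 2 and 3 and at 1.37, 1.39 and 1.28 in the knockouts. Knockouts 1 and 2 were above every control and knockout 3 lay among them. The difference was 0.07 ± 0.05 (limma adjusted p = 0.644), with a 95% interval from 3.77% lower to 14.2% higher. The directions of Sirt1 and Sirt6 were opposite in every setting tried, with Sirt1 between 0.03 and 0.10 and Sirt6 between -0.17 and -0.08, though neither passed in any of the 18.

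Sirt7, found in the nucleolus and linked to ribosomal DNA transcription, was bright on its first probe, A_51_P352264, at 4.23, 4.18 and 4.17 in the controls. The knockouts lay at 4.18, 4.29 and 4.23. The groups overlapped, and the difference of 0.04 ± 0.05 (limma adjusted p = 0.810) was -0.015 once slide row was blocked. The dimmer probe, A_55_P2045697, was at -0.12, 0.05 and 0.13 in the controls and at 0.11, 0.17 and 0.13 in the knockouts, a difference of 0.12 ± 0.08 (limma over probes, adjusted p = 0.654). Controls 1 and 2 lay below every knockout on this probe, and control 3 lay among them.

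Sirt2, the cytosolic tubulin and FOXO deacetylase, had the smallest p of the family. Its probe was at 3.10, 3.14 and 3.17 in controls 1, 2 and 3. It was at 3.05, 3.003 and 2.98 in knockouts 1, 2 and 3. Every knockout lay below every control, with the arrays of the second row lowest. The difference was -0.13 ± 0.05 (log2, SE), 8.48% lower with a 95% interval from 15.5% to 0.89% lower. Its unadjusted p was 0.0346 and its limma adjusted p 0.352, and 1508 of the 15309 genes had a p as small or smaller. With slide row as a block it was at -0.09 ± 0.07 (limma adjusted p = 0.738).

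Sirt2 shares its upstream region with Nfkbib, which encodes an inhibitor of NF-kB and starts 108 bases away on the opposite strand in RefSeq. Sirt3 faces Psmd13, a proteasome subunit gene, 85 bases away. The bases between each pair of starts are shown because both genes of a pair start from them. They lie at chr7:28766645-28766751 (plus strand) for Sirt2 and chr7:140882310-140882393 (minus strand) for Sirt3, both GRCm38.p6, and hold no whole match to a searched motif.
Sirt2: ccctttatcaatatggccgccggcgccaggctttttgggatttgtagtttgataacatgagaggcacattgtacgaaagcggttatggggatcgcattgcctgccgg
Sirt3: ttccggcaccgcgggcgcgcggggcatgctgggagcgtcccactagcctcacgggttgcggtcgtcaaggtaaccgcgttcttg

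Neither facing gene passed the test. Nfkbib was at -0.04 ± 0.06 (limma adjusted p = 0.845) beside Sirt2 at -0.13, and Psmd13 was at -0.02 ± 0.06 (limma adjusted p = 0.922) beside Sirt3 at -0.06. The differences between the genes of a pair were not tested. Of the 14 protein-coding genes next to a sirtuin in the RefSeq table, 12 were measured and 0 passed by limma, with 0 at an unadjusted p under 0.05. Their differences ran from -0.09 for Ankrd24, beside Sirt6, to 0.12 for Pxn, beside Sirt4. Herc4, beside Sirt1, was the only gene of the 12 whose groups did not overlap, at 0.09 ± 0.05, where 19.5% of all genes had such groups.

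Among the mitochondrial members, Sirt3, the main deacetylase of that compartment, had the widest spread. It was at 5.04, 4.998 and 5.22 in controls 1, 2 and 3 and at 4.94, 5.07 and 5.06 in knockouts 1, 2 and 3. Control 3 stood above the other 5 arrays, and the groups overlapped. The difference was -0.06 ± 0.08 (limma adjusted p = 0.798). Without control 3 it was 0.0064, with array weights 0.00073, and with slide row as a block -0.14, so its direction was not fixed by these arrays.

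Sirt4, an acyl-lysine hydrolase and ADP-ribosyltransferase that acts on glutamate dehydrogenase, was at 0.72, 0.80 and 0.88 in the controls and at 0.83, 0.82 and 0.83 in the knockouts on its brighter probe, A_51_P424641. The knockouts lay inside the control range. The difference was 0.03 ± 0.06 (limma adjusted p = 0.878), and without control 1 it was -0.013. The dimmer probe, A_55_P2185372, gave 0.07 ± 0.06 (limma over probes, adjusted p = 0.769).

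Sirt5, which removes succinyl, malonyl and glutaryl groups from mitochondrial enzymes, was at 1.58, 1.66 and 1.76 in the controls. The knockouts were at 1.77, 1.68 and 1.72, all within or just above the control range. The difference was 0.06 ± 0.06 (limma adjusted p = 0.772), with a 95% interval from 6.6% lower to 15.7% higher. Across the 3 genes with 2 probes, the probes of a gene had differences of the same sign.

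**Figure D2:**
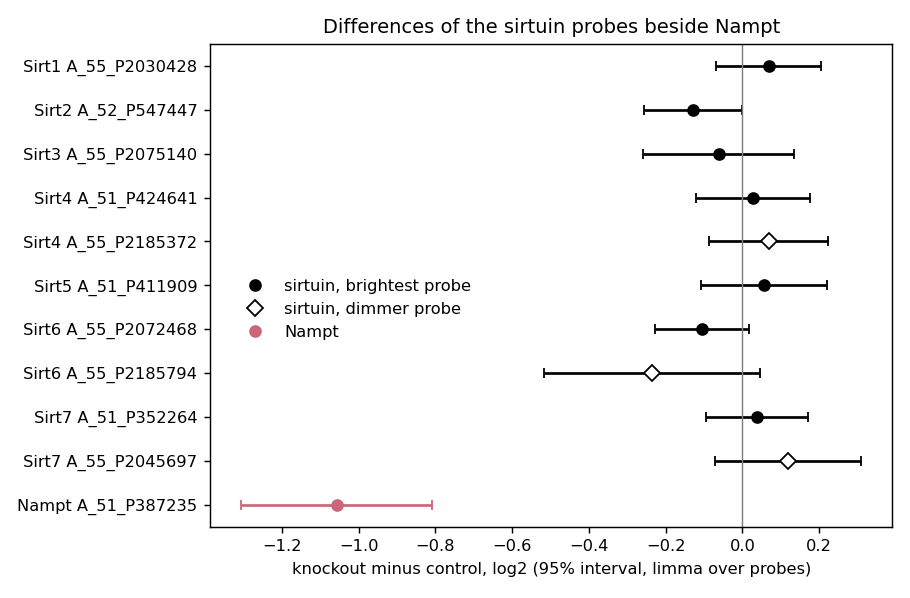
Difference between knockout and control on the log2 scale (x axis) for each sirtuin probe and for the Nampt probe, with 95% intervals from limma over all probes; filled points are the brightest probe of a gene and open diamonds a dimmer one. All 10 sirtuin intervals include 0, that of Sirt2 only just, and lie apart from that of Nampt at -1.06.

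On their brightest probes, most sirtuins varied less between mice of a group than the median gene tested. The genes were not matched for signal. The dimmer probes had residual SDs of 0.07 for Sirt4, 0.16 for Sirt6 and 0.09 for Sirt7, beside a median of 0.11 over all probes. By gene, the median residual SD was 0.05 for the 7 sirtuins and 0.09 for all genes tested. Of the 7, 6 lay under the latter, Sirt3 being the exception. The 95% interval reached 0.11 to either side of the difference for Sirt6 and 0.19 for Sirt3. The median size of the difference was 0.06 for the sirtuins and 0.08 for all genes.

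**Figure D3:**
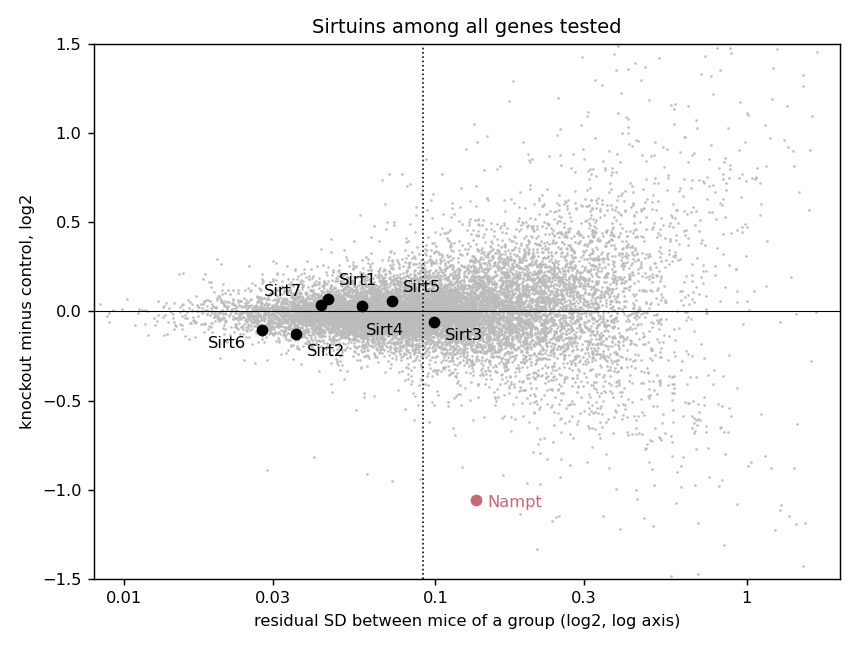
Difference between knockout and control (y axis, log2) against the residual SD between mice of a group (x axis, log scale) for all genes tested in grey, the sirtuins in black and Nampt in red; the dotted line marks the median SD of 0.09 over all genes, and 48 genes lie outside the axes. Sirt6 and Sirt2 sit at the left with negative differences, and Nampt is far below the family.

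The genes whose values most resembled those of Sirt6 over the 6 arrays were Clock, the circadian transcription factor gene (Pearson r = 0.999), Tmem50b (0.996) and Med19, a Mediator subunit gene (0.994). For Sirt2, the member of largest difference by brightest probe, they were Cyp4a31 (0.998), Inpp5j (0.995) and Slc25a45 (0.995). These encode a fatty acid hydroxylase, an inositol phosphatase and a mitochondrial carrier. With 6 arrays such values are common, and 375 genes had r above 0.9 with Sirt6 and 409 with Sirt2 among 15306 searched. None of these 6 genes passed the test by limma (adjusted p from 0.187 to 0.352).

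The enzymes that supply NAD formed the first related list. Of 18 measured genes of NAD synthesis and salvage, Nampt fell and none rose. Nmrk1, the nicotinamide riboside kinase gene that feeds NAD synthesis beside NAMPT, was at 2.39, 2.18 and 2.28 in the controls and 1.81, 2.05 and 1.98 in the knockouts, with no overlap (-0.34 ± 0.09, limma adjusted p = 0.235). Kmo, of the synthesis route from tryptophan, was at 0.13 ± 0.05 (limma adjusted p = 0.368). The list's median was 0.02.

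Of 17 measured sirtuin regulators none passed by limma, and the median was 0.005. At an unadjusted p under 0.05 there were 3, beside 12.8% of all genes. Of the 17, 9 were higher and 8 lower. Ccar2, which encodes the SIRT1 inhibitor DBC1, was at 0.46, 0.52 and 0.56 in the controls and 0.71, 0.69 and 0.73 in the knockouts (0.20 ± 0.05, limma adjusted p = 0.216). Elavl1, which encodes the RNA-binding protein HuR, known to stabilise the SIRT1 transcript, was at -0.22 ± 0.06, and Rps19bp1, which encodes the SIRT1 activator AROS, at -0.18 ± 0.06 (limma adjusted p = 0.263 and 0.334). Every knockout lay beyond every control for each of these 3 genes, which is true of 5 of the 17, beside 19.5% of all genes.

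Substrates and partners of the enzymes showed no call either. Among 26 nuclear and cytosolic ones, 4 had an unadjusted p under 0.05 (12.8% of all genes did), and the median was -0.004. Ppara was at 0.30 ± 0.09, Smad7 at -0.19 ± 0.06 and Polr1a at -0.15 ± 0.05 (limma adjusted p from 0.277 to 0.318). Of 25 measured genes in the list of mitochondrial substrates, 18 were negative and the median was -0.04, beside -0.01 over all genes. The list also holds Acss2 and Cat, whose enzymes lie mainly outside mitochondria. An unadjusted p under 0.05 was found for 2, beside 12.8% of all genes. Acadm, an enzyme of fatty acid oxidation, was at -0.16 ± 0.05, and the DNA repair gene Ogg1 at 0.17 ± 0.06 (limma adjusted p = 0.304 and 0.367).

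The list of genes that SIRT6 is known to hold down in other cells had 24 measured members, of which 0 rose and 1 fell by limma, and 10 were positive and 14 negative with a median of -0.01. That fall was not called without control 2 or 3 or knockout 2 or 3, or with slide row as a block (0 calls in the list), while 2 were called without knockout 1. Timp1, the metalloproteinase inhibitor gene, lay at -2.62, -3.04 and -3.09 in the controls and at -1.70, -0.41 and -0.90 in the knockouts. Every knockout was above every control, and the difference of 1.91 ± 0.33 did not pass over all genes (limma adjusted p = 0.138). Timp1 is also counted among the tubular injury genes below, of which 13 of 14 were higher. Trp53inp1 was at 0.29 ± 0.08 (limma adjusted p = 0.266).

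The other lysine deacetylases, which use zinc in place of NAD, gave a like picture. Of 11 measured Hdac genes none passed by limma, and the median was -0.03. An unadjusted p under 0.05 was found for 1, beside 12.8% of all genes. Hdac9 was at -0.39 ± 0.16, Hdac2 at -0.13 ± 0.06 and Hdac8 at 0.14 ± 0.08 (limma adjusted p from 0.388 to 0.540). Hdac9 was dim, with levels between -4.84 and -3.96 over the arrays, below both Sirt6 probes and nearer to the dimmest detected spots. Among 17 other NAD-consuming enzymes, poly(ADP-ribose) polymerases and NAD glycohydrolases, 14 were positive. Their median was 0.04, beside -0.01 over all genes. None of the 17 passed by limma and 2 had an unadjusted p under 0.05, Parp10 at 0.32 ± 0.07 and Parp2 at 0.22 ± 0.06 (limma adjusted p = 0.194 and 0.259).

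**Figure D4:**
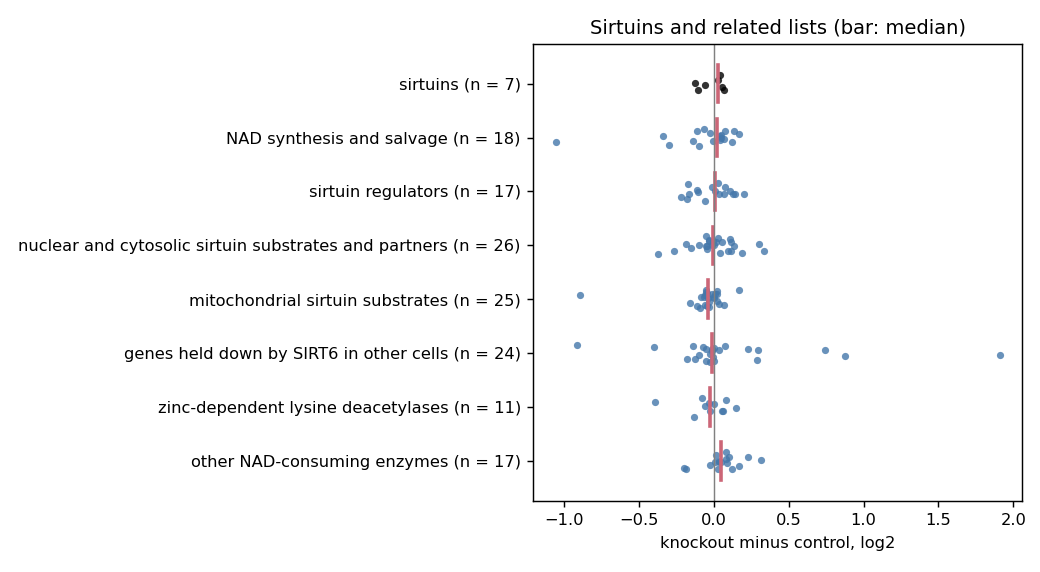
Difference between knockout and control (x axis, log2) for the 7 sirtuins in black and for the measured members of 7 related lists in blue, 1 point a gene, with the list median as a red bar. The medians lie between -0.04 and 0.04, and the sirtuins, with the fewest members, span a narrower range than every other list. The lists were not matched for size or signal.

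Markers of kidney cell types are given beside these values, since a change in cell make-up could move a whole-kidney level. All 16 proximal tubule markers were measured and 0 passed by limma (0 at an unadjusted p under 0.05). Their summed linear signal was 3292 to 3568 times the array's 75th percentile in the controls and 3365 to 3452 in the knockouts, so the control range held the knockouts. Of 12 macrophage and dendritic cell markers, 11 were higher and 0 passed (8 at an unadjusted p under 0.05), with sums of 80.5 to 91.2 in the controls and 100.6 to 103 in the knockouts. Of 14 tubular injury genes, 13 were higher and 10 had an unadjusted p under 0.05, with sums of 122 to 147 and 141 to 151. Of these, 1 passed, the growth factor gene Hbegf (0.60 ± 0.06, limma adjusted p = 0.0458). Its call held in 9 of 18 alternatives and was lost with any 1 array left out (0.57 to 0.65, limma adjusted p from 0.0511 to 0.208). Among neutrophil markers 3 of 5 were lower at an unadjusted p under 0.05 and the other 2 were higher, above that threshold. The sums of the 5 were 140.0 to 141.7 in the controls and 135.6 to 139.9 in the knockouts. These sums rest mainly on the 2 markers that were not lower and hardly register the other 3. The median difference of the list was -1.16. Of the listed markers not measured, Cxcr2 was not well above background on all arrays of either group. Ly6g was not analysed here, since no probe was matched to it. Over all genes, 6.69% were higher and 6.13% lower at an unadjusted p under 0.05. All 6 measured adipocyte markers were lower (median -0.99, 1 at an unadjusted p under 0.05), with sums of 32.3 to 53.6 in the controls and 18.6 to 55.3 in the knockouts. Red cell markers were lower for 4 of 5 (median -0.69), with sums of 521 to 671 and 297 to 590, and none had an unadjusted p under 0.05. Markers of the loop of Henle and distal tubule were lower for 6 of 7 (median -0.12). Of 7 collecting duct markers 4 were higher and 3 lower (median 0.05), and 2 of the lower ones had an unadjusted p under 0.05. Fibroblast and pericyte markers were higher for 6 of 8 (median 0.21, 1 at an unadjusted p under 0.05). None of the markers in these 5 lists passed by limma. The part of these shifts in the values of Sirt2 and Sirt6 was not tested.

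**Figure D5:**
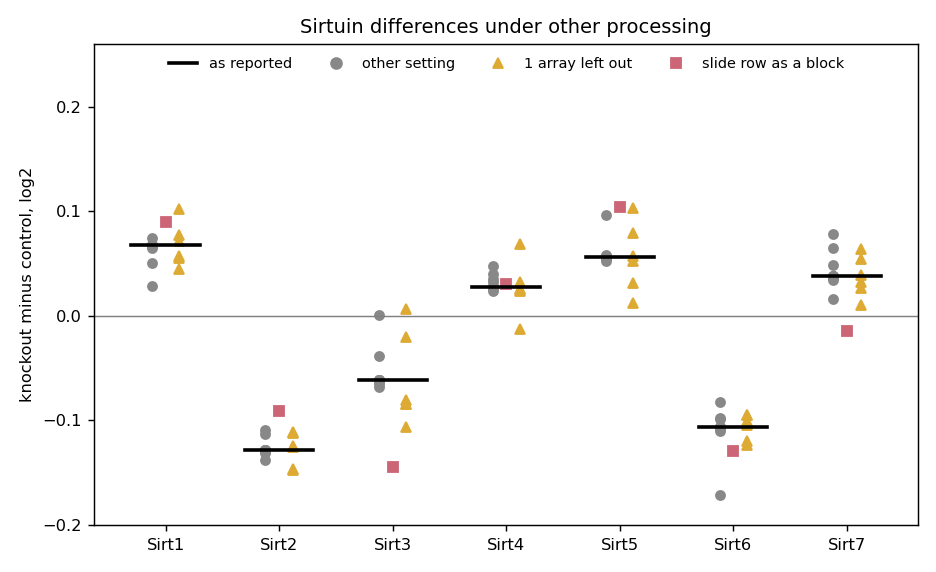
Difference between knockout and control (y axis, log2) for each sirtuin as reported (black bar) and under 18 other settings: other processing in grey, 1 array left out in yellow, slide row as a block in red. Sirt2 and Sirt6 stay below 0 and Sirt1 and Sirt5 above 0 in all 18, while Sirt3, Sirt4 and Sirt7 cross 0 in at least 1.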

How the data were processed

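Whole-kidney total RNA from 6 mice, labelled with Cy3, was read on SurePrint G3 Mouse GE 8x60K arrays, per the labels. Spot intensity, background-subtracted and detrended, comes from the authors' run of Agilent Feature Extraction 10.7.1.1 (grid build mm9, per the file headers). Flags for background and outlier spots were used as deposited. The deposited value table gives a ratio on a linear scale. All of its values above 1 (13933 to 13936 per array) lay within 1% of the processed signal over 1 constant per array, and its column medians were 0.075 to 0.084. The sources used here do not name the software behind that table.

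Signals were log2-transformed here from the deposited intensities, without outlier spots (92 to 151 per array), averaged by probe, and shifted so that the array's 75th percentile was 0. A probe was kept (32948) if every array of a group had it well above background. RefSeq accessions without versions (GRCm38.p6) named 28026 probes for 21154 genes, and a gene was represented by its brightest kept probe. Groups were compared with limma 3.58.1 (R 4.3.3), with no covariate, and p-values were adjusted over all genes, or all probes where stated. For 3 mice against 3, the smallest two-sided p of an exact permutation test is 0.1. The fit was tested on simulated data. Python 3.11.15, pandas 2.3.3 and matplotlib 3.10.9 made the tables and plots. Promoters are RefSeq's (GRCm38.p6) and all 7 genes matched.

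The members, lists and tests were chosen with earlier results of these data known. The genes named are the sirtuins, Nampt, up to 3 of smallest p in a list, the genes beside each sirtuin (taken as the next protein-coding gene by midpoint, a narrowing of the rule as first written) and the 3 closest by Pearson r to Sirt6 and to the member of largest difference. For the marker lists the text gives counts and sums, and some genes that the rule takes are not reported here. Alternatives tried: quantile normalisation, the median of detected probes as the scale, normexp on median spot signals (offset 50) then quantile, the deposited ratios, no filter, a filter over all 6 arrays, averaged probes, a fit over probes, trended robust variance, array weights, a block for replicate number or for slide row, and each array left out in turn.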

Additional observations from a re-analysis of the deposited data

How the results depend on the processing

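None of the 7 sirtuins or their 10 probes passed an adjusted p of 0.05 by limma in any alternative run, and the lowest adjusted p was 0.189, for Sirt2 with array weights. Sirt2 had an unadjusted p under 0.05 in 9 of 18 alternatives and Sirt6 in 3. Sirt1, Sirt2, Sirt5 and Sirt6 kept their sign in all 18. The sign turned for Sirt3 with array weights (0.00073) and without control 3 (0.0064, also by probe A_55_P2075140), for Sirt4 without control 1 (-0.013, also by probe A_51_P424641) and for Sirt7 with slide row as a block (-0.015, also by probe A_51_P352264). With single arrays left out, Sirt3 ran from -0.11 to 0.0064 and Sirt4 from -0.013 to 0.069. Slide row and knockout are partly confounded, since the second row holds knockouts alone.

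The count of genes called, 26 as reported, was 11 with quantile normalisation, 77 with no filter on dim probes, 57 with a trended and robust variance, 89 with array weights and 16 with slide row as a block. Leaving out 1 array gave 0 to 57, with 0 without control 2 (1437 at an unadjusted p under 0.05) or control 3 (1550), 1 without knockout 2 or knockout 3, and 57 without knockout 1. Nampt missed the threshold with quantile normalisation (-1.04, adjusted p = 0.0579), slide row as a block (-0.87, 0.0733) and probes as the tested feature (-1.06, 0.0518). Its difference ran from -1.15 to -1.003 with single arrays left out, and the call was lost in 5 of those 6 fits. The NAD synthesis and salvage list then had 0 calls with quantile normalisation, with slide row as a block, and 0 to 1 with single arrays left out. The list of genes held down by SIRT6 had 0 with slide row as a block and 0 to 2 with single arrays left out.

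Same-numbered control and knockout arrays did not all deviate together (correlations of 0.15, -0.12 and -0.04 for numbers 1, 2 and 3). The numbers were therefore not taken as pairs. Of the 3 only control 1 correlated best with its own number. Control 2 correlated best with knockout 3 (0.16) and control 3 with knockout 2 (0.17), and every other pair was negative. With the replicate number as a block 0 genes were called (1636 at an unadjusted p under 0.05), Nampt was at -1.06 (adjusted p = 0.0891), Sirt2 at -0.13 and Sirt6 at -0.11.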
